A study of Homo sapiens with 20 samples.

Results

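NEAT1 is a nuclear long non-coding RNA, and its contacts with 3 RNA-binding proteins were followed along the transcript. Its peaks were those whose deposited name carries ENSG00000245532, which is 1 of the 19362 genes with a peak in any library. They lay on hg19 chromosome 11, 65190302 to 65212505, on the plus strand, a span of 22204 nt. In all, 893 of 994441 deposited peaks belonged to NEAT1, and each of the 16 libraries held some. The minus strand of the span held 0 peaks.

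The study used individual-nucleotide crosslinking and immunoprecipitation (iCLIP), which sequences the RNA crosslinked to a chosen protein. The cells were TREX FLP-In 293T, a human embryonic kidney line built for tetracycline-inducible expression. Control cells were compared with cells carrying an inducible, T7-tagged hnRNPA1 (overexpression), and both kinds had 24 h of tetracycline after 3 days of drug selection, with blasticidin and zeocin or, for the inducible line, hygromycin. Nuclear extracts were precipitated for hnRNPA1 (2 libraries per condition), U2AF2 (3 per condition) and SRSF1 (3 per condition). The labels do not say whether replicates were separate cultures, so p-values measure the spread between libraries, which may be technical.

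As background, NEAT1 is transcribed as a short polyadenylated isoform and a long isoform that share their 5′ end. The long isoform is the scaffold of paraspeckles, nuclear bodies that hold proteins such as SFPQ and NONO. Binding near the start can therefore fall on either isoform, and binding far from it falls on the long isoform alone. hnRNPA1 is a splicing repressor that favours UAGG, U2AF2 binds the pyrimidine-rich stretch upstream of 3′ splice sites, and the SR protein SRSF1 activates splicing from GGAGA-like enhancers. GENCODE v29, whose coordinates are on another build, lists 8 NEAT1 transcripts of 512 to 22743 nt. NEAT1-201 has 3441 nt and NEAT1-202 has 22743 nt.

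The 3 motifs were not spread alike over NEAT1-202. They were counted on the sense strand, with overlapping matches. UUUUU had 3.75 matches per kb in the first 4 kb of the transcript, 8.58 from 4 to 16 kb and 5.78 beyond 16 kb, against 3.56 over 29566 lncRNA transcripts. GGAGA had 3 matches per kb in the first 4 kb, 0.417 from 4 to 16 kb and 1.33 beyond 16 kb, against 1.89 over those transcripts. The U-rich motif was thus densest in the middle of the transcript and GGAGA near its start. UAGG varied least, with 2.5, 2.08 and 1.78 matches per kb in these stretches and 2.31 over all lncRNA transcripts. Positions count from the first base of NEAT1-202 in GENCODE v29 and were not aligned to the hg19 peaks, so a match is a description of the letters and not a measured site. To show what each motif looks like there, these are the 60-nt windows with the most bases in matches (the first such window where several tie), with whole matches in capitals.
UAGG, positions 106 to 165: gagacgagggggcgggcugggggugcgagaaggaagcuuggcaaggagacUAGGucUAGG
UUUUU, positions 9843 to 9902: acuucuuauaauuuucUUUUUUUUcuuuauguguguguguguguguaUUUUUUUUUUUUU
GGAGA, positions 1186 to 1245: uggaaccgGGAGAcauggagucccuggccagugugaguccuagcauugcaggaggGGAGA

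Distances below count from the first base of the lowest NEAT1 peak in any library. A peak was placed by its midpoint, and its value is the number of reads the authors' peak caller gave it. A value of 0 means that no peak was listed, not that no read was there. RPM are a site's or gene's reads per 1000000 reads in all peaks of the library. Libraries held 125082 to 3657197 reads in all peaks. Depth differed by condition: the hnRNPA1 control libraries were deeper than those with overexpression (at least 2508821 against at most 575471 reads), and the U2AF2 control libraries were shallower (at most 1158060 against at least 2317615). The SRSF1 control libraries were also shallower, by less (at most 173766 against at least 175293). U2AF2 overexpression replicate 3 stood apart, with peaks from 3 reads upwards where the other 15 libraries started at 6, and with NEAT1 peaks of 8 nt at the median. Whether adjacent narrow peaks share reads is not given in the sources used here.

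**Figure D1:**
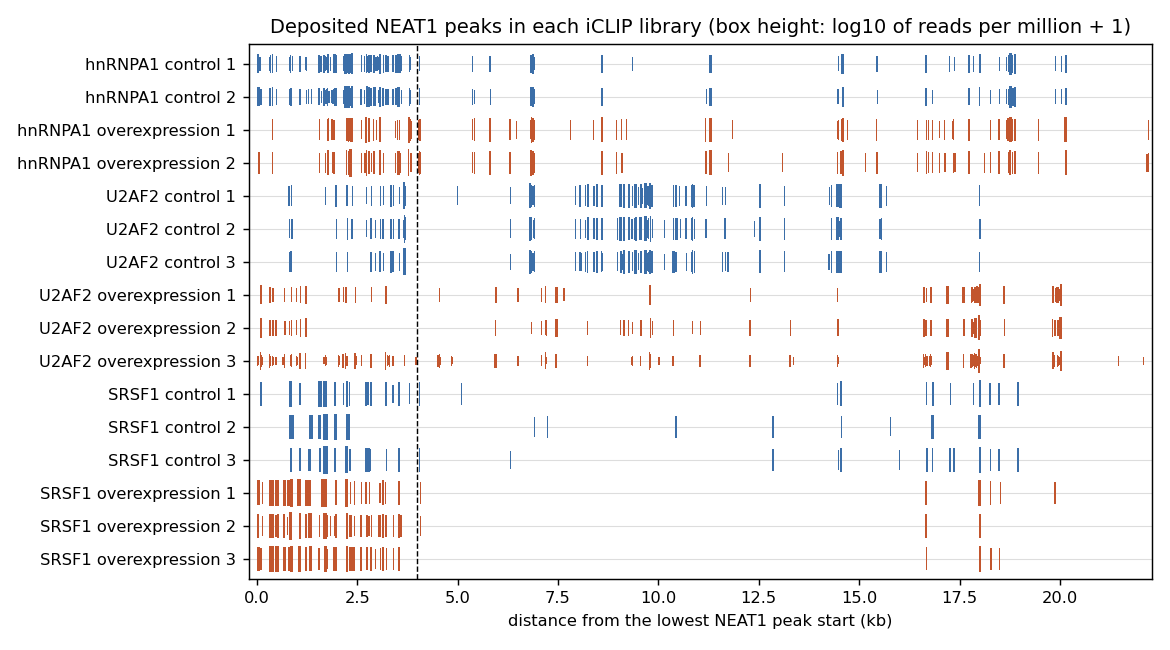
Deposited NEAT1 peaks (boxes) in the 16 iCLIP libraries against distance in kb from the lowest NEAT1 peak start; box height grows with log10 of RPM + 1, and the dashed line marks 4 kb. Control U2AF2 peaks crowd between 8 and 11 kb and overexpression U2AF2 peaks beyond 16 kb, while SRSF1 peaks with overexpression lie mostly before 4 kb.

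In control cells the 3 proteins occupied different stretches of NEAT1. Control libraries had 64.8% ± 0.143 (SD, n = 2) of their hnRNPA1 NEAT1 reads in the first 4 kb, 60.3% ± 4.16 (n = 3) of their SRSF1 reads and 21.5% ± 1.91 (n = 3) of their U2AF2 reads. U2AF2 instead had 50.4% ± 0.463 of its reads between 8 and 11 kb, where hnRNPA1 had 1.49% and 1.92% and SRSF1 had 0%, 0% and 3.94%. Every U2AF2 control library lay above every other control library there. Merged over all libraries of both conditions, NEAT1 had 145 sites, 31 of which began in the first 4 kb. This total includes sites listed with overexpression alone, some of them narrow ones of U2AF2 overexpression replicate 3 only. It is thus no base for a share in control cells. There, 7 sites were shared by at least 2 control libraries of each protein, 5 of them in the first 4 kb.

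With overexpression the 3 distributions moved apart from their controls in different ways. As shares of NEAT1 reads, hnRNPA1 fell in the first 4 kb and rose mainly from 4 to 16 kb. U2AF2 shares fell in the middle and rose beyond 16 kb, and SRSF1 shares rose near the start. With the sites called in at least 2 libraries of each protein, 4 were shared by all 3 proteins with overexpression, 3 of them in the first 4 kb.

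**Figure D2:**
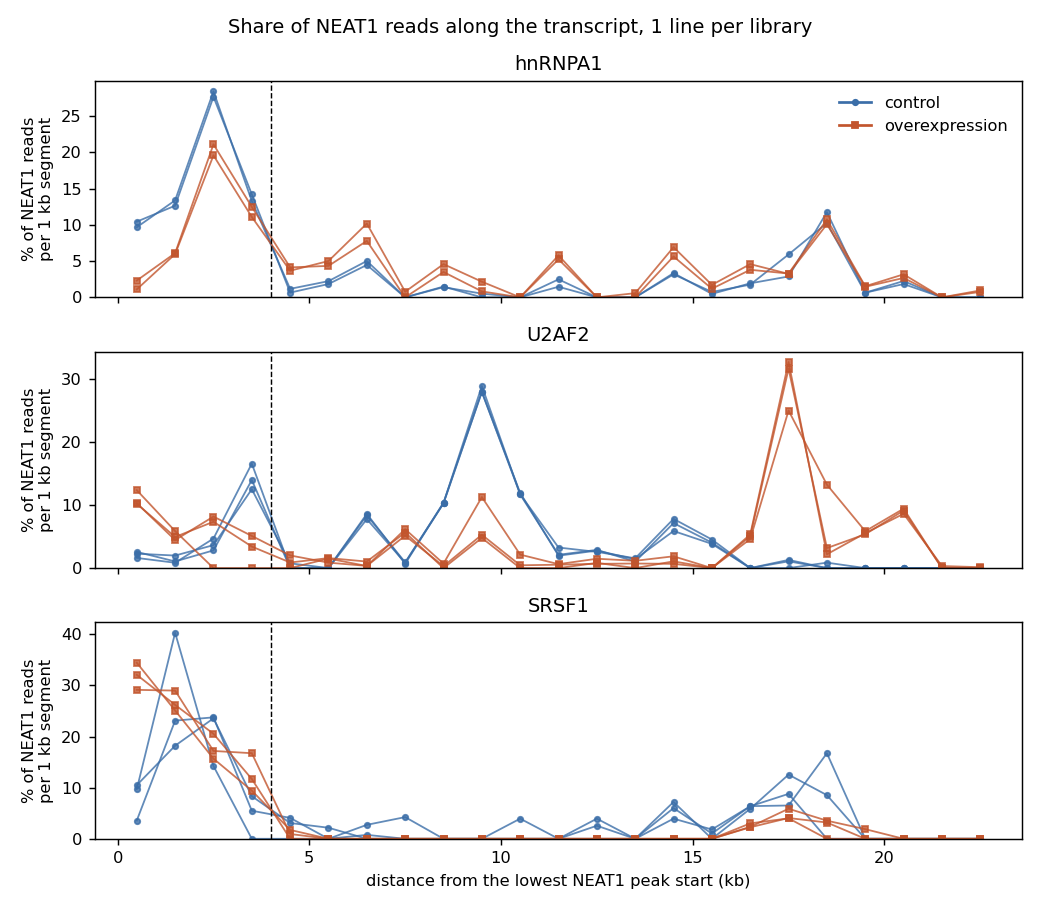
Percentage of a library's NEAT1 reads in each 1 kb segment (y axis) against distance in kb (x axis), 1 line per library, with control in blue circles and overexpression in orange squares. The U2AF2 control lines peak at 9 to 10 kb and the overexpression lines at 17 to 18 kb.

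hnRNPA1 signal on NEAT1 rose with overexpression. Normalised NEAT1 reads were 2861 and 2780 in control libraries and 11134 and 12135 with overexpression. The groups did not overlap, and both overexpression libraries were about as high as each other. The log2 change was 2.04 ± 0.067 (SE, n = 2 per condition; limma, adjusted p = 0.0023), a call made for 4.31% of genes tested in this direction. Over all genes tested the median log2 change was -1.63, and 34.1% were called lower. Before scaling, NEAT1 peaks held 7186 and 6042 reads in control libraries and 4629 and 5347 with overexpression, so the rise is one relative to the other genes of each library. Depth was greater in control libraries, and its part in the rise was not tested. On quantile-normalised values the log2 change was 1.42 and missed the threshold (limma, adjusted p = 0.0669). As a number of peaks per gene, also scaled between libraries, it was 1.27. Before scaling, NEAT1 had fewer peaks with overexpression, 70 and 68 against 81 and 72 in control libraries. NEAT1 ranked 22 among genes by reads in both control libraries and 7 and 6 with overexpression.

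The hnRNPA1 rise was uneven along NEAT1. Of 18 tested 1 kb segments, 15 were called higher and 0 lower, where 6.4% of all segments of all genes were called higher and 38.9% lower. The first kb was not among them: it held 283.6 ± 21.2 normalised reads in control cells and 202.1 ± 112 with overexpression (log2 change -0.60 ± 0.50; limma, adjusted p = 0.486). The second kb went from 366.6 ± 7.20 to 701.9 ± 53.7 (0.93 ± 0.068), the third from 790.3 ± 1.22 to 2370 ± 269 (1.58 ± 0.096) and the fourth from 388 ± 26.2 to 1374 ± 198 (1.82 ± 0.13). Beyond 4 kb the changes of segments called with a peak in every hnRNPA1 library ran from 1.96 ± 0.067 (18 to 19 kb) to 4.14 ± 0.35 (4 to 5 kb). The segments from 9 to 10 kb and from 17 to 18 kb were not called either, and the one from 22 to 23 kb, which was called, had no control peak and 35 and 51 reads with overexpression. With 1 control library left out, 6 or 4 segments were called higher, and with no filter on low values 0 were.

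Within a library, the hnRNPA1 distribution lay farther from the start with overexpression. The first 4 kb held 64.9% and 64.7% of NEAT1 reads in control libraries and 37.7% and 42.0% with overexpression. Its first kb alone held 10.4% and 9.67% in control libraries and 1.10% and 2.32% with overexpression. Neither pair of groups overlapped. The difference in the first 4 kb was -25.0 percentage points (exact permutation p = 0.3333, the smallest that 2 against 2 allows). The read-weighted median position was 2946 and 2922 nt in control libraries and 6838 and 5802 nt with overexpression (difference 3386 nt, exact permutation p = 0.3333). Both overexpression medians thus lay past the first 4 kb and both control medians within it.

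**Figure D3:**
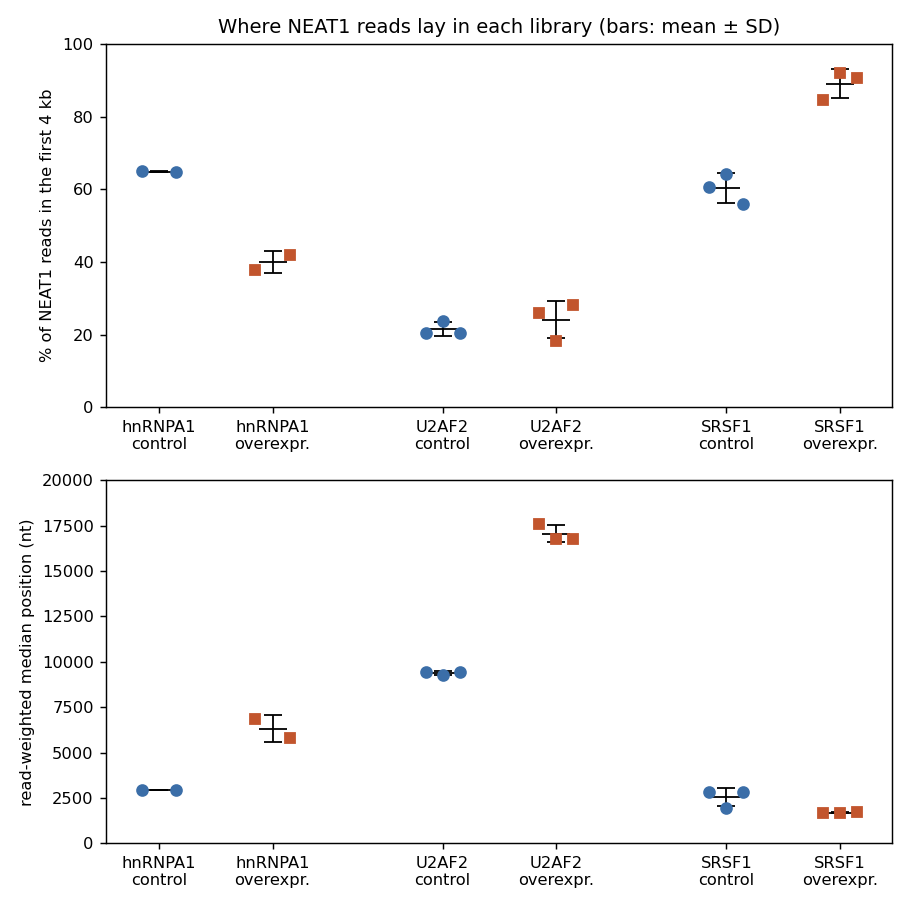
Percentage of NEAT1 reads in the first 4 kb (top) and read-weighted median position in nt (bottom) for each library, with mean ± SD bars. hnRNPA1 moves away from the start and SRSF1 toward it, while the U2AF2 groups overlap in the first 4 kb and the median moves from about 9373 to 17053 nt.

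Among merged sites, the strongest for hnRNPA1 was the same in both conditions and lay close to the start. It ran from 65192441 to 65192693 (2139 to 2391 nt) with 1142 and 1007 reads in control libraries and 475 and 577 with overexpression, which is 392.7 and 933.6 RPM at the mean. A site far from the start, at 65208991 to 65209143 (18689 to 18841 nt), held 497 and 456 control reads and 305 and 265 with overexpression, or 174.5 and 507.8 RPM. That far site was listed in each hnRNPA1 library and in no library of U2AF2 or SRSF1. Before merging, the single peak with the most reads was not in 1 place. It lay at 18761 and 2225 nt in the hnRNPA1 control libraries and at 6838 and 2346 nt with overexpression. Over NEAT1 as a whole, 25 sites were called in both libraries of both conditions, 9 in both control libraries alone (6 of them in the first 4 kb) and 10 in both overexpression libraries alone (9 of them beyond it).

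U2AF2 signal on NEAT1 fell with overexpression of hnRNPA1. Normalised NEAT1 reads were 14091, 14416 and 11846 in control libraries and 1431, 1748 and 1366 with overexpression. Each control library was far above each overexpression library. The log2 change was -3.15 ± 0.19 (SE, n = 3 per condition; limma, adjusted p = 0.000201), in a direction called for 16% of genes tested. The median log2 change of all genes tested was 0.76, and 1.49 on the scale of total reads, on which NEAT1 changed by -2.35. The size depended on the scale: it was -0.39 on quantile-normalised values (limma, adjusted p = 0.0201). As a number of peaks per gene, also scaled between libraries, it was -1.61. Before scaling, NEAT1 peaks held 4772, 5331 and 6830 reads in control libraries and 3275, 3368 and 4288 with overexpression. Depth was greater with overexpression, and its part in the size of the fall was not tested. The amount of NEAT1 RNA was not analysed here, so less binding, less RNA per cell and fewer cells that hold it cannot be told apart.

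**Figure D4:**
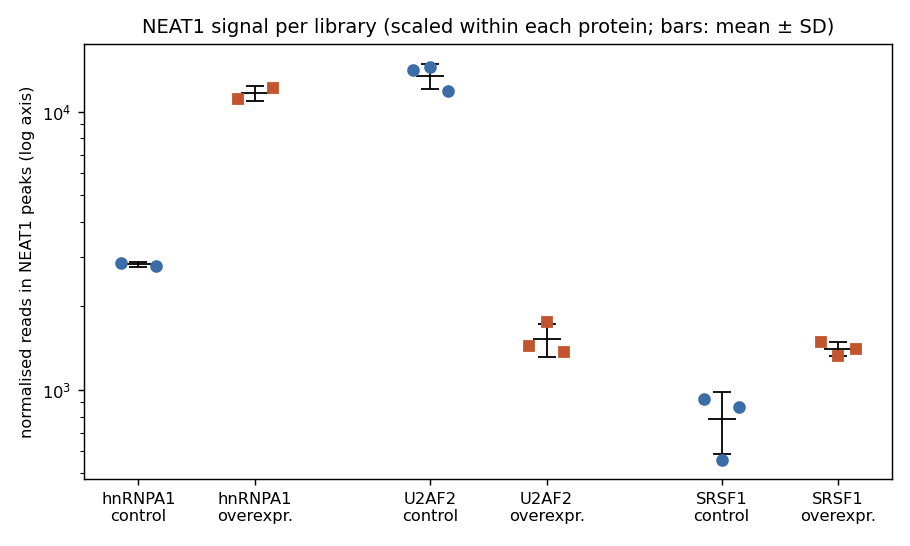
Normalised reads in NEAT1 peaks per library on a log axis, scaled within each protein, with mean ± SD bars, so that levels are comparable within a protein only. hnRNPA1 lies higher with overexpression (2820 to 11635 at the mean), U2AF2 lower (13451 to 1515) and SRSF1 at 784 and 1401.

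The U2AF2 fall was concentrated in the middle of the transcript. Of 21 tested segments, 11 were called lower and 4 higher, where 10.4% of all segments were called lower and 54.8% higher. These counts include segments listed in 1 condition alone, which are the 4 called higher and, among the lower, 15 to 16 kb. With a peak required in every library, 6 segments were called lower and 0 higher. The segments called lower were 0 to 1 kb, 3 to 4 kb, 6 to 7 kb and the 8 consecutive ones from 8 to 16 kb. From 9 to 10 kb, the tallest control segment, normalised reads went from 3810 ± 427 to 112.7 ± 73.2 (log2 change -5.24 ± 0.44; limma, adjusted p = 0.000169), and from 6 to 7 kb from 1114 ± 168 to 8.45 ± 5.57 (-7.02 ± 0.43). In the first kb the values were 286.6 ± 47.5 and 167.8 ± 42.1 (-0.78 ± 0.22), a difference that rests on the scaling. In RPM the first kb held 155.1, 109.8 and 152.0 in control libraries and 124.0, 179.9 and 120.9 with overexpression, and the groups overlapped. The segment from 7 to 8 kb, between segments called lower, held 109.6 ± 19.8 and 86.4 ± 19.4 (-0.35 ± 0.23) and was not called.

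Beyond 16 kb U2AF2 had few control peaks. The segments 16 to 17, 19 to 20 and 20 to 21 kb, and 5 to 6 kb nearer the start, had no control peak and entered the test through the overexpression libraries alone, so their calls are comparisons with 0. With overexpression they held 75.9 ± 11.7, 84.5 ± 9.08, 137.6 ± 21.1 and 20.3 ± 7.63 normalised reads. From 17 to 18 kb, control libraries held 103.2 ± 93.7 and overexpression libraries 453.0 ± 97.9; the groups did not overlap and the segment was not called (limma, adjusted p = 0.167). From 18 to 19 kb the values were 41.5 ± 71.8 and 91.7 ± 85.7, which overlapped and were not called (limma, adjusted p = 0.188). The listing of these segments moved with the depth, whose part was not tested. With any 1 of the 3 overexpression libraries left out, 10 to 12 segments were called lower and 0 higher. The segments with no control peak then had a peak in too few libraries to pass the filter and were not tested. The absence of higher calls among them was set by the filter and is no check on those calls.

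**Figure D5:**
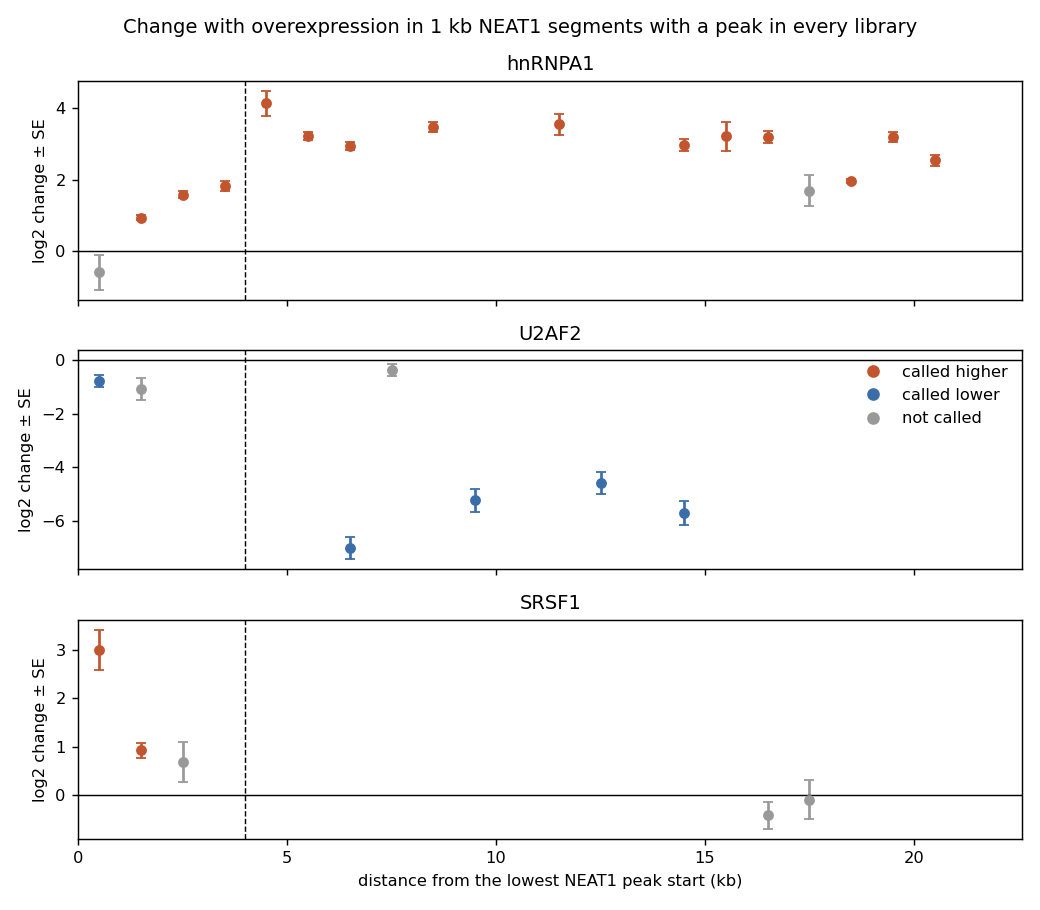
Log2 change with overexpression ± SE (limma) in the 1 kb NEAT1 segments with a peak in every library of a protein, which are 16 for hnRNPA1, 7 for U2AF2 and 5 for SRSF1; the dashed line marks 4 kb and segments with a condition at 0 are left out. The hnRNPA1 changes are larger from 4 to 17 kb than in the first 4 kb, and the U2AF2 segments called lower between 6 and 15 kb lie below the one at the start.

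Expressed as shares, U2AF2 reads moved to the far end. The block from 8 to 11 kb held 51.0%, 50.2% and 50.1% of NEAT1 reads in control libraries and 4.79%, 14.1% and 6.04% with overexpression. The block from 16 to 23 kb held 1.30%, 0.863% and 1.07% in control libraries and 58.2%, 54.5% and 54.9% with overexpression. In both blocks the groups lay far apart. The first 4 kb held 20.5%, 23.7% and 20.4% against 26.0%, 18.3% and 28.1%, so that the groups overlapped (difference 2.54 percentage points, exact permutation p = 0.4, n = 3 per condition). With the boundary at 3 kb the shares were 7.17% and 21.2% (difference 14.1 percentage points, exact permutation p = 0.1), and without overexpression replicate 2 or 3 the 4 kb difference was 5.46 or 0.561 points. Leaving out overexpression replicate 1 gave 1.61 points. Within it, however, the first kb held 2.28%, 1.61% and 2.58% in control libraries and 10.2%, 12.4% and 10.3% with overexpression. The fourth kb held 12.5% to 16.6% in control libraries and 0% to 5.11% with overexpression. The median position was 9434, 9255 and 9430 nt in control libraries and 17598, 16785 and 16774 nt with overexpression (difference 7680 nt, exact permutation p = 0.1, the smallest that 3 against 3 allows).

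Single sites were named for the most RPM in 1 condition, from the same reads as the shares above. Their lower level in the other condition is partly built into that choice, so they are a description only. The top control site, 65199938 to 65200122 (9636 to 9820 nt), had 550, 606 and 832 reads in control libraries and 157, 173 and 201 with overexpression, or 758.3 and 62.6 RPM at the mean. With overexpression it still ranked 3 among U2AF2 sites, with 4.87% of NEAT1 reads. The next control site, 65193936 to 65194018 (3634 to 3716 nt), had 364, 555 and 563 control reads and 0, 0 and 26 with overexpression. Both were listed in no hnRNPA1 or SRSF1 library. With overexpression the top site was 65208256 to 65208333 (17954 to 18031 nt), with 62, 46 and 73 control reads against 771, 696 and 859, or 70.0 and 273.5 RPM. It carried 1.08% of U2AF2 NEAT1 reads in control cells and 21.4% with overexpression. A second far site, 65210211 to 65210360 (19909 to 20058 nt), was listed in no control library and held 393, 362 and 464 reads with overexpression. Altogether 29 sites were listed in at least 2 control and no overexpression libraries, 23 of them from 4 to 16 kb and 0 beyond. Another 29 were listed in at least 2 overexpression and no control libraries, 11 of them beyond 16 kb. A further 10 were listed in at least 2 of each. Sites were merged and counted on NEAT1 alone. No share over all genes can therefore stand beside these counts, or beside those of hnRNPA1 and SRSF1, and they are not read as particular to NEAT1. Which sites are listed in 1 condition alone can move with depth, for U2AF2, hnRNPA1 and SRSF1 alike, and this was not tested.

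The number of NEAT1 peaks for U2AF2 was 61, 67 and 64 in control libraries and 46, 46 and 152 with overexpression. The third overexpression library, the one with peaks from 3 reads, set this mean: the difference was 17.3 peaks with it and -18 without it (exact permutation p = 1 and 0.1).

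In control cells 13 merged sites were listed in at least 2 libraries of both U2AF2 and hnRNPA1, and with overexpression 6 were. One site, 65197089 to 65197228 (6787 to 6926 nt), was the second strongest hnRNPA1 site with overexpression. It held 321 and 303 hnRNPA1 reads in control libraries and 410 and 350 with overexpression, or 114.4 and 677.3 RPM. U2AF2 had 392, 407 and 502 reads there in control libraries and 0, 11 and 0 with overexpression, or 503.7 and 1.58 RPM. Here hnRNPA1 was higher and U2AF2 lower with overexpression, on the scale of RPM. This site also ranked 3 among U2AF2 sites in control cells. It was thus named from groups where it was high, so both directions are partly built into the choice. At the far U2AF2 sites, hnRNPA1 held 143 and 111 control reads at 17954 nt and 55 and 35 at 19909 nt. Neither was listed in the shallower hnRNPA1 overexpression libraries, whose lowest NEAT1 peaks held 15 and 14 reads, so no change is read from this.

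Peaks overlapping hnRNPA1 peaks of control cells, by at least 1 nt, held 29.5%, 27.1% and 27.4% of U2AF2 NEAT1 reads in control libraries and 59.5%, 54.9% and 49.4% with overexpression. Against the hnRNPA1 peaks of overexpression cells the shares were 27.5%, 27.7% and 26.2% in U2AF2 control libraries and 8.34%, 9.98% and 8.63% with overexpression. In neither case did the groups overlap, and the direction was opposite. The hnRNPA1 overexpression libraries were shallower, and the far U2AF2 sites at 17954 and 19909 nt were listed for hnRNPA1 in control libraries alone. No change is therefore read from the opposite directions. The hnRNPA1 peaks covered 13.4% of the NEAT1 span in control cells and 11.2% with overexpression. These shares are a description of the peak lists and were not given a test.

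SRSF1 signal on NEAT1 was higher with overexpression but did not pass the test. Normalised reads were 927.7, 560.0 and 863.6 in control libraries and 1483, 1322 and 1397 with overexpression, and the groups did not overlap. The log2 change was 0.87 ± 0.24 (SE, n = 3 per condition; limma, adjusted p = 0.0965), where 6.38% of genes tested were called higher. For SRSF1 the median log2 change of all genes tested was 0.36, and the change of NEAT1 lay above that of 63.6% of them. The NEAT1 change passed with genes that had a peak in every library (limma, adjusted p = 0.0418), a smaller family of tests. Restricted to peaks of at least 20 reads the change was 0.43. SRSF1 was the shallowest protein, with 330 to 972 NEAT1 reads per control library and 1327 to 2025 with overexpression.

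What did change for SRSF1 was the stretch next to the start. The first kb held 102, 32 and 28 unscaled reads in control libraries and 457, 590 and 584 with overexpression. Each overexpression library was several times above each control library. In normalised reads this segment went from 60.8 ± 33.7 to 448.0 ± 62.8 (log2 change 3.00 ± 0.42; limma, adjusted p = 0.00773). The second kb also rose, from 198.1 ± 28.4 to 373.8 ± 8.73 (0.92 ± 0.15; limma, adjusted p = 0.00883). These 2 were the segments called higher of 9 tested, against 9.62% of all segments, where 4.8% were called lower. The 1 called lower, 14 to 15 kb, held 46.9 ± 22.8 in control cells and no listed peak with overexpression; it entered the test through control libraries alone, and with a peak required in every library 0 were called lower. With any 1 of the overexpression libraries left out, 0 SRSF1 segments were called.

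SRSF1 shares moved toward the start. The first 4 kb held 60.6%, 64.2% and 55.9% of NEAT1 reads in control libraries and 84.6%, 92.0% and 90.5% with overexpression (difference 28.8 percentage points, exact permutation p = 0.1, the smallest possible). The first kb alone went from 7.92% ± 3.79 to 31.9% ± 2.66. The block from 11 to 16 kb held 7.20%, 9.70% and 9.58% in control libraries and no listed peak with overexpression. The far block from 16 to 23 kb held 27.0%, 15.2% and 29.6% against 13.6%, 7.01% and 9.50%. None of these pairs of groups overlapped. The median position was 2851, 1962 and 2832 nt in control libraries and 1666, 1700 and 1706 nt with overexpression (difference -857 nt, exact permutation p = 0.1). CLIPper listed SRSF1 NEAT1 peaks from 6 reads in control libraries and from 14 to 17 with overexpression. Counting only peaks of at least 20 reads, the first 4 kb held 67.1% in control cells and 89.5% with overexpression.

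The SRSF1 sites called in 1 condition alone split by position. All 7 sites in at least 2 overexpression and no control libraries lay in the first 4 kb, and all 5 in at least 2 control and no overexpression libraries lay beyond it. The SRSF1 overexpression libraries were deeper, and the part of depth in this split was not tested. The top site with overexpression, 65191053 to 65191228 (751 to 926 nt), had 60, 32 and 28 control reads and 144, 180 and 165 with overexpression, or 262.1 and 658.8 RPM. The top control site, 65191831 to 65192096 (1529 to 1794 nt), had 122, 71 and 111 against 103, 194 and 159 reads, or 668.0 and 587.6 RPM. It kept a like level in RPM while the site at 751 to 926 nt, nearer the start, gained. Each of these sites was named for the most RPM in 1 condition. The contrast is partly built into that choice and is a description only. SRSF1 and hnRNPA1 shared ground: peaks overlapping hnRNPA1 control peaks held 82.1% to 94.3% of SRSF1 NEAT1 reads in control libraries and 92.1% to 94.7% with overexpression. Against the hnRNPA1 peaks of overexpression cells, from shallower libraries, the shares were lower. They were 60.9% to 69.9% in SRSF1 control libraries and 45.7% to 53.6% with overexpression.

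The responses of the 3 proteins on NEAT1 differed when tested against each other as an interaction of protein and condition. The U2AF2 response was lower than that of hnRNPA1 on the log2 scale (difference -5.20 ± 0.20; limma, adjusted p = 1.06e-05), in a direction called for 11.4% of genes. It was also lower than that of SRSF1 (difference -4.02 ± 0.28; limma, adjusted p = 3.91e-06; 12.9% of genes). The SRSF1 response was lower than that of hnRNPA1 (difference -1.17 ± 0.29; limma, adjusted p = 0.0343; 1.16% of genes). This last call was lost on the scale of total reads (adjusted p = 0.0899) and in 9 of the 10 fits that left out 1 library, the exception being SRSF1 control replicate 2. Comparisons of U2AF2 with hnRNPA1 and of SRSF1 with hnRNPA1 share the hnRNPA1 libraries.

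MALAT1, the neighbouring nuclear lncRNA, moved in the same directions as NEAT1. Its log2 changes were 1.16 ± 0.086 for hnRNPA1 (limma, adjusted p = 0.00332), -3.87 ± 0.32 for U2AF2 (adjusted p = 0.00026) and 0.73 ± 0.22 for SRSF1, which did not pass (adjusted p = 0.139). Within a library the log2 ratio of NEAT1 to MALAT1 reads needs no scaling between libraries. It was -1.84 and -1.99 in hnRNPA1 control libraries and -1.18 and -0.89 with overexpression (difference 0.88, exact permutation p = 0.3333). For U2AF2 it was -1.54, -1.55 and -1.41 against -0.78, -1.05 and -0.52 (difference 0.72, exact permutation p = 0.1). NEAT1 thus took a larger part relative to MALAT1 with overexpression in each library of both proteins. For SRSF1 the ratios overlapped, at -2.25, -3.01 and -2.31 against -2.39, -2.44 and -2.30 (difference 0.14, exact permutation p = 0.9), and the sign turned to -0.10 without control replicate 2.

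Genes around NEAT1 were read from a list of nuclear or well-known lncRNAs and a list of paraspeckle protein genes, both by reads in peaks on their transcripts. Among paraspeckle protein genes, U2AF2 signal fell for 17 of 28 measured and rose for 0, with a median log2 change of -2.18 beside 0.76 over all genes, of which 16% were called lower and 27.5% higher. hnRNPA1 signal rose for 5 and fell for 2 of 29 (median 0.19 beside -1.63, with 4.31% of genes called higher and 34.1% lower), and SRSF1 signal rose for 2 and fell for 1 of 25, where 6.38% of genes were called higher and 1.95% lower. The counts include genes with no listed peak in 1 condition. HNRNPH1, which encodes an hnRNP of the H family, moved as NEAT1 did, by 0.74 ± 0.06 for hnRNPA1, -4.87 ± 0.28 for U2AF2 and 0.88 ± 0.17 for SRSF1, each past the threshold. DAZAP1, RBMX and UBAP2L rose for hnRNPA1 (1.21, 0.44 and 1.10) and fell for U2AF2 (-2.54, -2.40 and -1.01). CPSF6, a subunit of a 3′ end processing factor, fell for both proteins (-0.89 and -4.05). CIRBP fell for U2AF2 (-2.69), and for hnRNPA1 it held 27.5 normalised reads in control cells and no listed peak with overexpression. MATR3 fell for U2AF2 (-1.89) and SRSF1 (-1.05).

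Among lncRNAs the hnRNPA1 signal rose for 4 and fell for 2 of 15 measured, beside 4.31% and 34.1% of all genes. U2AF2 signal rose for 2 and fell for 9 of 15 (27.5% and 16% of all genes), and SRSF1 signal rose for 2 and fell for 1 of 14 (6.38% and 1.95%). ZFAS1, a host of small nucleolar RNAs, passed for all 3 proteins in the directions NEAT1 took (1.36 ± 0.084, -4.18 ± 0.16 and 1.73 ± 0.18). DLEU2 rose for hnRNPA1 (0.35) and fell for U2AF2 (-3.09), and GAS5 fell for U2AF2 (-4.27) and rose for SRSF1 (1.47). JPX went another way, up for hnRNPA1 (2.59 ± 0.17) and up for U2AF2 (44.2 to 985.5 normalised reads), with no SRSF1 peak with overexpression. DANCR held 7.34 (hnRNPA1) and 26.8 (U2AF2) normalised reads in control cells and no listed peak with overexpression for either, so its 2 calls are comparisons with 0.

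NEAT1 was also matched against the 1346 other genes with a peak in all 16 libraries, by the root mean square difference of centred log2 RPM. The nearest were PNISR (0.472), HNRNPA2B1 (0.528), ASTN2 (0.579), CCNL2 (0.590) and AHSA2P (0.619), where the median over all genes was 1.51. MALAT1 ranked 13 (0.690). HNRNPA2B1, which encodes a close relative of hnRNPA1, had 1293 RPM for hnRNPA1 in control cells and 2692 with overexpression, 4994 and 667.3 for U2AF2, and 3075 and 4368 for SRSF1. NEAT1 itself had 2413 and 8859, 6499 and 1279, and 4470 and 6811, so the order of conditions was the same for each protein. These values share libraries and depth and describe likeness only.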

How the data were processed

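Each iCLIP library came as a list of peaks that the authors called with CLIPper on reads mapped to hg19, per the file headers. TopHat and Bowtie2 are named without versions in the submitters' processing notes. The name of each deposited peak holds its gene ID, its number and how many reads it contained, a count cut off below a minimum. Without their versions, 17814 of 19362 gene IDs were found in the name table. No pair of replicates shared more than 0.0693% of its peaks in interval and reads. The authors' table of exon inclusion from RNA-seq was not used here.

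Reads in peaks were summed per gene, and per 1 kb segment counted from the first peak base of each gene, with a peak placed by its midpoint. Sums were scaled within each protein by median-of-ratios factors, log2-transformed after adding 1, and fitted with limma 3.58.1 (trend) in R 4.3.3, the condition being the only term, for genes or segments present in 50% or more of a protein's libraries. Differences between proteins were the interaction of protein and condition, each protein having to meet that filter. P-values were adjusted by Benjamini-Hochberg over all genes or all segments, with a threshold of 0.05. A called gene or segment is described as having risen or fallen. Measures with 1 number per library were tested by exact permutation of the means (two-sided), in which 2 against 2 cannot go below 0.3333 and 3 against 3 cannot go below 0.1. The fits were tested on simulated data. Python 3.11.15, numpy 2.4.6, pandas 2.3.3 and matplotlib 3.10.9 were used.

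The number of reads in a peak is not a library total: NEAT1 held 330 to 7186 reads per library, and a site under the caller's minimum is listed as nothing. Named sites are the 3 with the most RPM in each protein and condition, after peaks of all libraries that overlapped by at least 1 nt were merged. From the 2 gene lists, members past the threshold for at least 2 proteins are named, and the 5 genes most like NEAT1. NEAT1, the lists and the rules were chosen with earlier results of these data known. The alternatives were another scaling, pseudocount, filter, minimum of reads per peak, segment length, boundary, the replicate number as a block, and leaving out each library.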

Additional observations from a re-analysis of the deposited data

Results flagged for a closer look

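The response of NEAT1 to hnRNPA1 overexpression differed between proteins by an interaction test over all genes (limma). The difference was -5.20 on the log2 scale for U2AF2 minus hnRNPA1, -4.02 for U2AF2 minus SRSF1 and -1.17 for SRSF1 minus hnRNPA1. Signal lay outside NEAT1's own peaks at 1 place in its span: U2AF2 overexpression replicate 3 listed a peak of 4 reads under another gene ID, ENSG00000207727, which had no symbol in the name table. No control library listed a peak of that ID there.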

How the results depend on the processing

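Of 248 alternative values of 21 results, 221 counted as kept. For a limma change this means the same direction and side of the threshold. For the number of segments called it means staying within 1.5 times. Measures tested by permutation were judged by direction alone, whatever their size or p-value. The hnRNPA1 change was 1.42 (adjusted p = 0.0669) on quantile-normalised values, and the SRSF1 change of 0.87 passed with a peak in every library. The difference between the SRSF1 and hnRNPA1 responses missed the threshold on the scale of total reads (-1.20); leaving out 1 library gave -1.43 to -1.04. hnRNPA1 segments called were 0 with no filter and 26 in segments of 500 nt (23 higher, 3 lower), and 4 to 15 with 1 library left out. U2AF2 segments called were 6 with a peak in every library, 7 in segments of 2 kb and 29 in segments of 500 nt, and 10 to 17 with 1 library left out. Without an overexpression library, the U2AF2 segments with no control peak missed the filter and were not tested. SRSF1 segments called were 0 to 3 with 1 library left out. The difference in U2AF2 peaks on NEAT1 turned to -16.7 with peaks of at least 20 reads and to -18 without overexpression replicate 3 (range -18 to 35 with 1 library left out). The SRSF1 log2 ratio of NEAT1 to MALAT1 turned to -0.10 without control replicate 2 (range -0.10 to 0.28). The cause was not tested.

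Same-numbered libraries did not deviate together (correlations of -0.0135 to 0.0219 over 8 pairs), so the numbers were not taken to pair samples. With the replicate number as a block the SRSF1 segments called went to 0. The SRSF1 minus hnRNPA1 difference, still -1.17, then missed the threshold (limma, adjusted p = 0.0676). The other 19 results counted as kept, but the permutation measures among them were judged by direction, which a block cannot change. Leaving out 1 hnRNPA1 library leaves 1 in a condition, which is then assumed to vary like the other. Depth limits what a missing peak means.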
